A study of Mus musculus with 6 samples.

Results

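The 10 genes described here encode proteins of bone mineral and of osteocytes, the cells buried in bone. They were Ibsp, Spp1 and Alpl (early matrix genes), Bglap, Bglap2 and Ifitm5 (late osteoblast genes), Dmp1, Mepe and Phex (osteocyte genes), and Enpp1, whose enzyme makes pyrophosphate. The members were chosen by their measured values in this same comparison, with its results known, so their levels and differences are a description and carry no test. All 10 were among the 48440 genes of the count table, and all 10 passed the filter on low counts that left 15257 tested genes. RNA was sequenced from murine tissue entangled with BEC (rabbit BMSC-engineered cartilage in a PLGA scaffold), wrapped in a PCL/collagen nanofibrous membrane and placed under the skin of BALB/c nude mice. The 0%-Axitinib group (3 samples, called untreated in the labels and read here as membranes without the drug) was compared with the 3%-Axitinib group (3 samples, membranes with 3% by mass of axitinib, an inhibitor of VEGF receptors), both taken 12 weeks after implantation. The study bought male nude mice aged between 6 and 8 weeks, which lack T cells, and the host response here is limited to that. A pair of constructs of the same group was placed in each mouse, and which samples share a mouse is not given, so n counts samples. The question was how the drug in the membrane changed the tissue around cartilage that tends to ossify under the skin.

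Bone matrix is laid down by osteoblasts as collagen and is then filled with mineral. Ibsp and Alpl are switched on early, osteocalcin (Bglap and Bglap2) late, and cells that become enclosed turn to osteocyte genes such as Dmp1, Mepe and Phex. Mineral grows where phosphate is set free, and pyrophosphate holds it back, so the enzymes that make and cleave pyrophosphate act against each other. In bulk RNA, more or fewer cells of a type and more or less RNA per cell cannot be told apart.

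Libraries held 17761968, 16716411 and 18005908 reads on genes in 0%-Axitinib replicates 1 to 3, and 9225518, 11686084 and 18403795 in 3%-Axitinib replicates 1 to 3. Levels are given as CPM (reads on a gene scaled to library size by TMM), and a count of 3, taken as the limit of detection, corresponded to between 0.157 and 0.33 CPM, which covers counting error only. Several libraries stood apart. Unmapped reads made up 5.47%, 3.84% and 14.9% of the 0%-Axitinib libraries and 48.4%, 29.2% and 16.8% of the 3%-Axitinib libraries. The share was larger in every 3%-Axitinib sample, and it was largest in replicate 1, which also had the fewest reads on genes. Reads of the rabbit cells were not separated from murine reads, and whether any were counted on the genes below was not tested. Across all tested genes, the study's criterion (a fold change of at least 1.5 with an unadjusted p of at most 0.05, taken here from the quasi-likelihood test of edgeR) was met by 1456 genes higher in the 3%-Axitinib group (9.54%) and by 1785 lower genes (11.7%). With libraries scaled by total counts the split was 989 higher and 2448 lower. The lowest 3%-Axitinib value exceeded the highest 0%-Axitinib value in 2236 genes (14.7%), and the reverse held in 2534 genes (16.6%). With p adjusted by Benjamini-Hochberg, edgeR's quasi-likelihood test called 1 gene (0.00655%) at 0.05, while 3585 had an unadjusted p of at most 0.05 and DESeq2's Wald test called 1957 adjusted. That gene, Nr1d1, a nuclear receptor of the molecular clock that is named after its values were seen, is not a bone gene. Without 0%-Axitinib replicate 3 the adjusted calls numbered 1252 and the criterion was met by 2274 higher genes. The adjusted calls numbered 58 without 3%-Axitinib replicate 2, and 0 without any one of the other samples.

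Marker genes showed which other tissues the libraries held. The 7 genes of red cells and marrow (globins, Alas2, Mpo and Elane) summed to 447, 394 and 23950 CPM in 0%-Axitinib samples and to 176, 382 and 535 CPM in 3%-Axitinib samples. Replicate 3 of the 0%-Axitinib group was alone at its level, with the neutrophil precursor enzyme Mpo at 1244 CPM against no more than 1.54 CPM in any other sample. The 12 skeletal muscle genes summed to 153, 6.59 and 11.8 CPM in 0%-Axitinib samples and to 14951, 18.7 and 8674 CPM in 3%-Axitinib samples, so muscle RNA was abundant in 3%-Axitinib replicates 1 and 3 and nearly absent from replicate 2. The 8 keratinocyte genes summed to 900 CPM in 0%-Axitinib replicate 2 and to between 4.18 and 8.47 CPM in the other 5 samples. The 10 fibroblast genes summed to 13210, 7057 and 3768 CPM in 0%-Axitinib samples and to 12127, 18562 and 10625 CPM in 3%-Axitinib samples. The highest sum was that of 3%-Axitinib replicate 2, which also held the highest value of 8 members. The part of fibroblasts in the members' levels was not tested. The 8 adipocyte genes summed to between 761 and 2812 CPM, mostly from Lpl and Fabp4, which other cells make too. Adipoq, which is more specific to adipocytes, stood at 22, 16.7 and 22.4 CPM in 0%-Axitinib samples and at 16.1, 0.456 and 2.95 CPM in 3%-Axitinib samples. Plin1 stood at 9.45, 10.3 and 7.88 CPM and at 10.8, 0.182 and 1.85 CPM. Adipocyte RNA was thus nearly absent from 3%-Axitinib replicate 2, the sample richest in member reads, and its part in the members' levels was not tested.

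Among the members, 8 were higher and 2 lower in the 3%-Axitinib group by the mean, while 7352 of all 15257 tested genes had a positive log2 fold change. In 5 of 10 the lowest 3%-Axitinib value exceeded the highest 0%-Axitinib value, as in 14.7% of all tested genes. The reverse held for none of the 10, against 16.6% of tested genes. The 5 separated genes were Ibsp, Spp1, Alpl, Mepe and Ifitm5, and the 5 overlapping genes were Bglap, Bglap2, Dmp1, Phex and Enpp1. The median log2 fold change was 1.38 over the 10 members and -0.03 over all tested genes. With 3%-Axitinib replicate 2 left out the members' median fell to 0.52. With 0%-Axitinib replicate 3 left out it rose to 1.99, and all 10 were positive. Replicate 2 of the 3%-Axitinib group held the highest value of 8 members, and 0%-Axitinib replicate 3 that of the other 2, the osteocalcin genes. Together the members took 0.151%, 0.158% and 0.198% of the reads on genes in 0%-Axitinib samples and 0.294%, 1.76% and 0.397% in 3%-Axitinib samples. Each 3%-Axitinib share was thus above each 0%-Axitinib share, and the share of replicate 2 was far above the rest.

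**Figure D1:**
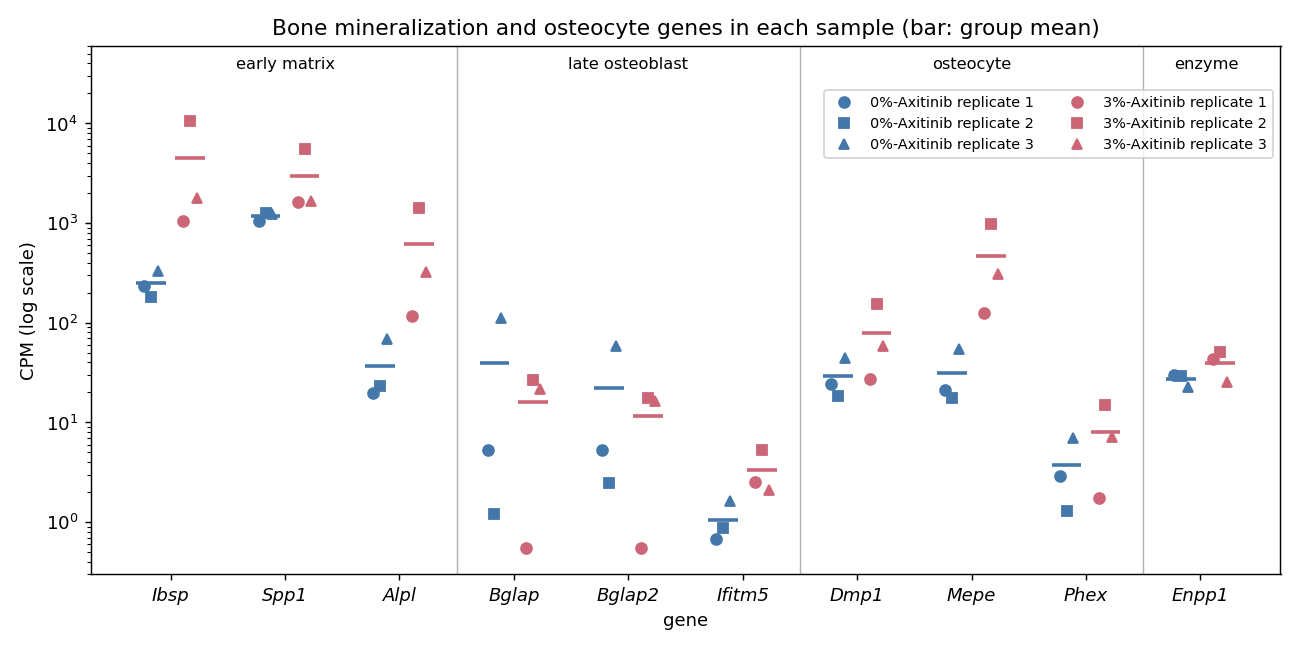
CPM on a log axis of each of the 10 members, grouped by role, with 1 point per sample (blue for 0%-Axitinib, red for 3%-Axitinib, shape for the replicate number) and a bar at each group mean. Ibsp, Alpl and Mepe have every red point above every blue point, while Bglap and Bglap2 are highest in 0%-Axitinib replicate 3 and lowest in 3%-Axitinib replicate 1.

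Ibsp encodes bone sialoprotein, an acidic matrix protein on which mineral forms. It stood at 235, 182 and 330 CPM in 0%-Axitinib samples and at 1047, 10536 and 1807 CPM in 3%-Axitinib samples. Its lowest 3%-Axitinib value was well above its highest 0%-Axitinib value, and replicate 2 alone accounted for most of the group's mean. The means were 249 ± 75.1 CPM and 4463 ± 5273 CPM (SD, n = 3 each), with a log2 fold change of 4.16 with a standard error of 0.96, and of 2.53 without 3%-Axitinib replicate 2. That replicate gave 0.99% of its reads on genes to Ibsp, against 0.103% and 0.17% in the other 3%-Axitinib samples.

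Alpl, the phosphatase at the cell surface that cleaves pyrophosphate, had 19.9, 23.4 and 68.3 CPM in 0%-Axitinib samples and 118, 1424 and 324 CPM in 3%-Axitinib samples. The groups did not overlap, and replicate 3 was the highest of 0%-Axitinib samples, as it was for Ibsp. The means were 37.2 ± 27 CPM and 622 ± 702 CPM (SD, n = 3 each), with a log2 fold change of 4.06 and a standard error of 1.02. Without 3%-Axitinib replicate 2 it was 2.59, and without 0%-Axitinib replicate 3 it was 4.84.

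Spp1 encodes osteopontin, which is made by osteoblasts and also by macrophages and osteoclasts. Its values were 1053, 1265 and 1240 CPM in 0%-Axitinib samples and 1620, 5575 and 1657 CPM in 3%-Axitinib samples. The 0%-Axitinib samples lay close together, and 3%-Axitinib replicates 1 and 3 were not far above them. The means were 1186 ± 116 CPM and 2951 ± 2273 CPM (SD, n = 3 each), with a log2 fold change of 1.31 with a standard error of 0.55, and of 0.47 without 3%-Axitinib replicate 2. Spp1 supplied 75.3%, 82.1% and 64% of the members' reads in 0%-Axitinib samples and 54.3%, 29.7% and 39.2% in 3%-Axitinib samples. Its share was thus lower in every 3%-Axitinib sample. The 12 macrophage genes summed to 18487, 29187 and 10928 CPM and to 12773, 13336 and 25313 CPM in the same order, ranges that overlapped. The 12 osteoclast genes summed to 6161, 7524 and 7520 CPM and to 4045, 9000 and 6152 CPM. Ctsk gave 3540 of the 4045 CPM in 3%-Axitinib replicate 1, and every other gene of the list had its lowest value there. Acp5 stood at 107 CPM in that sample against at least 700 CPM elsewhere, and Oscar at 0.44 CPM against at least 8.68 CPM. The sum thus hides this difference. The part of macrophages or osteoclasts in the level of Spp1 was not tested.

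Osteocalcin, a small secreted protein of mature osteoblasts, went another way. Bglap stood at 5.32, 1.22 and 111 CPM in 0%-Axitinib samples and at 0.55, 26.4 and 21.5 CPM in 3%-Axitinib samples, the 0.55 CPM resting on 5 reads. The highest and the lowest values belonged to 0%-Axitinib replicate 3 and 3%-Axitinib replicate 1, and the groups overlapped. The means were 39.1 ± 62.1 CPM and 16.2 ± 13.7 CPM (SD, n = 3 each), with a log2 fold change of -1.27 with a standard error of 1.63, and the difference was smaller than the spread between samples. With 0%-Axitinib replicate 3 left out it turned to 2.30, so that 1 library set its sign. That library is the one with 23950 CPM of red cell and marrow genes, and the part of marrow-bearing bone in its osteocalcin was not tested.

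Bglap2, the other osteocalcin gene, had 5.27, 2.45 and 58.2 CPM in 0%-Axitinib samples and 0.55, 17.8 and 16.6 CPM in 3%-Axitinib samples. It followed Bglap in which samples were high and low. Its log2 fold change was -0.91 with a standard error of 1.37, and 1.60 without 0%-Axitinib replicate 3. Bglap, Bglap2 and their further copy Bglap3 lie side by side on the minus strand of chromosome 3 (88368616 to 88384464 in GRCm38, 15.8 kb), with Bglap from 88383501 to 88384464 and Bglap2 from 88377736 to 88378699. The coding sequences of Bglap and Bglap2 have 285 bases each and differ at 4 of them (98.6% identical). Of all stretches of 50 bases in the Bglap transcript, 74.7% also occur in Bglap2 or Bglap3, and of those of 150 bases, 31.6%. Counts split between these copies are therefore uncertain, and the read length is not given in the sources used here. Bglap3, which is active mainly outside bone, had 10 reads in all 6 samples together. The opening 60 coding bases show how alike the copies are, with the 3 bases that differ between them in capitals.
Bglap: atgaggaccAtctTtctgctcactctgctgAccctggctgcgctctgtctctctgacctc
Bglap2: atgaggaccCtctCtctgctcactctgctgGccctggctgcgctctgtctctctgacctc
The Bglap stretch is the minus strand of chr3:88384356-88384415 and the Bglap2 stretch that of chr3:88378591-88378650, both in GRCm38.

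Ifitm5 encodes a membrane protein found almost only in osteoblasts that are laying down mineral. It was low throughout, with 0.679, 0.875 and 1.63 CPM in 0%-Axitinib samples and 2.53, 5.28 and 2.08 CPM in 3%-Axitinib samples, from 175 reads in all. The groups did not overlap, although 0%-Axitinib replicate 3 came near to 3%-Axitinib replicate 3. The log2 fold change was 1.63 with a standard error of 0.56. Without 0%-Axitinib replicate 3 it was 2.07, of the same sign as Bglap and Bglap2 without that library. The annotation places another gene, Gm45717, over Ifitm5 on the same strand, and reads on their common sequence could have been counted for neither.

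Dmp1 encodes an acidic phosphoprotein of the osteocyte and its canals. Its values were 24.5, 18.5 and 44.6 CPM in 0%-Axitinib samples and 27.5, 153 and 58.6 CPM in 3%-Axitinib samples. The groups overlapped, since 3%-Axitinib replicate 1 lay among 0%-Axitinib samples. The means were 29.2 ± 13.7 CPM and 79.7 ± 65.4 CPM (SD, n = 3 each), with a log2 fold change of 1.45 with a standard error of 0.64, and of 0.57 without 3%-Axitinib replicate 2.

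Mepe, a phosphoglycoprotein of osteocytes and osteoblasts that takes part in mineral and phosphate balance, differed far more. It stood at 21.3, 17.6 and 55.2 CPM in 0%-Axitinib samples and at 124, 980 and 307 CPM in 3%-Axitinib samples. No values overlapped, and the order of the samples was that of Alpl, except for 0%-Axitinib replicates 1 and 2. The means were 31.4 ± 20.7 CPM and 470 ± 451 CPM (SD, n = 3 each), with a log2 fold change of 3.91 with a standard error of 0.87. Without 3%-Axitinib replicate 2 it was 2.80.

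Phex encodes a membrane peptidase that is lost in inherited low phosphate rickets. It had 2.92, 1.28 and 7.06 CPM in 0%-Axitinib samples and 1.76, 15 and 7.12 CPM in 3%-Axitinib samples. High and low samples were mixed between the groups, and replicate 3 was at the same level in both. The log2 fold change was 1.09 with a standard error of 0.86, and it was 0.27 without 3%-Axitinib replicate 2. The 3 osteocyte genes thus had unlike differences, from 1.09 for Phex to 3.91 for Mepe on the log2 scale.

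Enpp1 makes the pyrophosphate that Alpl removes, and it is also active in cartilage. Its values were 29.7, 29 and 22.5 CPM in 0%-Axitinib samples and 43.8, 50.7 and 25.3 CPM in 3%-Axitinib samples. The groups overlapped through 3%-Axitinib replicate 3, and its fold change had the smallest standard error of the members. The means were 27.1 ± 3.94 CPM and 39.9 ± 13.1 CPM (SD, n = 3 each), with a log2 fold change of 0.56 and a standard error of 0.29 (between 0.35 and 0.80 with any 1 sample left out). Alpl reads per Enpp1 read numbered 0.67, 0.807 and 3.03 in 0%-Axitinib samples and 2.7, 28.1 and 12.8 in 3%-Axitinib samples. This read ratio was highest in 3%-Axitinib replicates 2 and 3, but 0%-Axitinib replicate 3 was above 3%-Axitinib replicate 1. Per kb of exon, Alpl was above Enpp1 in every sample. It stood at 4.93 against 2.9 CPM per kb in 0%-Axitinib replicate 1 and at 5.8 against 2.83 in replicate 2. These are read counts, and the activity of the enzymes was not measured.

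Levels of different genes were compared as CPM per kb of exon. In the 0%-Axitinib group Spp1 was the most abundant member at 720 ± 70.3 CPM per kb (SD, n = 3), above Ibsp at 120 ± 36.3 in every sample. Below Ibsp, the means of Bglap (63.3 ± 100) and Bglap2 (46.6 ± 66.6) rested on replicate 3, and the ranges of Ibsp, Bglap, Bglap2, Mepe, Dmp1 and Alpl overlapped from each to the next in the order of their means. Enpp1 had a lower mean than these, 2.64 ± 0.384, but was above Bglap (1.98) in replicate 2 at 2.83, and its range lay within that of Bglap. Next were Ifitm5 at 1.39 ± 0.656 and Phex at 0.597 ± 0.473, with overlapping ranges. In the 3%-Axitinib group Ibsp had the highest mean, 2158 ± 2550 CPM per kb (SD, n = 3), next to Spp1 at 1790 ± 1379. Ibsp was above Spp1 in 1 of the 3 samples only, so this change of order held for the mean and for replicate 2. Mepe came next at 280 ± 268, then Alpl at 154 ± 174, and Mepe was above Alpl in all 3 samples although the ranges overlapped. Alpl was above Dmp1 in all 3 samples, also with overlapping ranges. Dmp1 (28.8 ± 23.7), Bglap (26.2 ± 22.2) and Bglap2 (24.7 ± 20.4) followed with overlapping ranges, then Ifitm5 (4.31 ± 2.27) and Enpp1 (3.89 ± 1.28), also overlapping. In replicate 1, though, Bglap (0.89) and Bglap2 (1.17) were below Ifitm5 (3.31) and Enpp1 (4.27), so this order held for the means and in 2 of 3 samples. The lowest mean was that of Phex (1.27 ± 1.06), whose range was below that of Enpp1.

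By role, the median log2 fold change was 4.06 for the early matrix genes, 1.45 for the osteocyte genes and -0.91 for the late osteoblast genes. Averaged on the log2 scale and set against the 0%-Axitinib mean, the early matrix genes stood at -0.29, -0.25 and 0.54 in 0%-Axitinib samples and at 1.49, 4.39 and 2.25 in 3%-Axitinib samples. The osteocyte genes stood at -0.19, -0.78 and 0.97 and at 0.48, 3.30 and 1.93 in the same order. The late osteoblast genes stood at -0.68, -1.60 and 2.28 and at -2.11, 1.57 and 1.01. The early matrix genes were thus separated between the groups, while the osteocyte and the late osteoblast genes overlapped. The highest late osteoblast value was that of 0%-Axitinib replicate 3 and the lowest that of 3%-Axitinib replicate 1. The late osteoblast samples thus differed by 0.16 on average, with the sign opposite to their median fold change of -0.91. Without 3%-Axitinib replicate 2 the early matrix median was 2.53 and the osteocyte median 0.57, and without 0%-Axitinib replicate 3 the late osteoblast median was 2.07.

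Ratios within a library do not depend on how libraries were scaled. Ibsp reads per Dmp1 read numbered 9.61, 9.79 and 7.4 in 0%-Axitinib samples and 38.1, 68.8 and 30.8 in 3%-Axitinib samples. The ratio was narrow within each group and did not overlap, with log2 means of 3.15 ± 0.23 and 5.43 ± 0.60 (SD, n = 3 each). Mepe reads per Dmp1 read behaved alike, at 0.872, 0.947 and 1.24 against 4.52, 6.4 and 5.24. These osteocyte genes of the same cluster on chromosome 5 had similar read counts in 0%-Axitinib samples. Mepe reads were in excess in all 3%-Axitinib samples, including replicate 1, in which Dmp1 itself lay within the 0%-Axitinib range. Per kb of exon, Mepe was above Dmp1 in every 0%-Axitinib sample too. Mepe reads per Phex read likewise separated the groups, at 7.3, 13.7 and 7.82 against 70.6, 65.2 and 43.1. Ibsp reads per Mepe read did not, at 11, 10.3 and 5.97 against 8.42, 10.8 and 5.88, and these ranges overlapped. Ibsp reads per Spp1 read, both early genes, separated the groups at 0.224, 0.144 and 0.266 against 0.646, 1.89 and 1.09. Genes of the same role thus differed in the size of their differences. Ibsp reads per Bglap read ranged from 2.98 to 148 in 0%-Axitinib samples and from 83.9 to 1903 in 3%-Axitinib samples, and these overlapped.

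**Figure D2:**
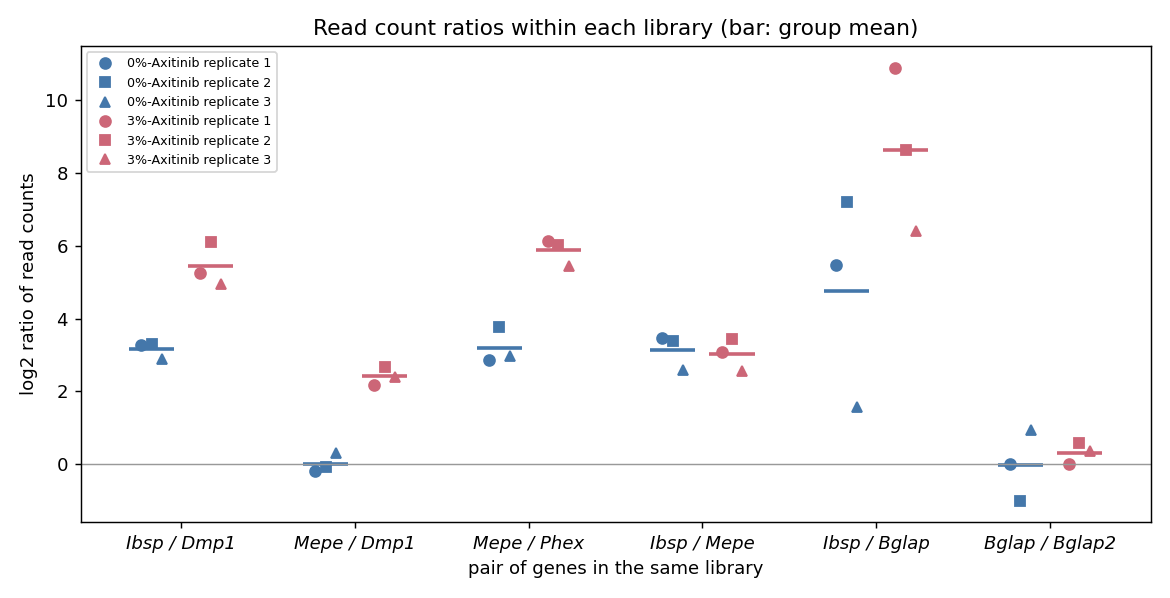
The log2 ratio of read counts between pairs of members in the same library, with 1 point per sample (blue for 0%-Axitinib, red for 3%-Axitinib, shape for the replicate number) and a bar at each group mean. The groups are apart for Ibsp over Dmp1 (means 3.15 and 5.43), Mepe over Dmp1 and Mepe over Phex, and overlap for Ibsp over Mepe, Ibsp over Bglap and Bglap over Bglap2.

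Of the members, 4 share a neighbourhood on chromosome 5. Dmp1, Ibsp, Mepe and Spp1 lie on the plus strand of chromosome 5 within 270.3 kb (104170712 to 104441050 in GRCm38), where they and Dspp, the gene of a tooth protein, are the 5 protein-coding genes. Dspp had no read in any of the 6 samples, which allows up to between 0.157 and 0.33 CPM. Its neighbours in order were Dmp1 (104202613 to 104214102), Ibsp (104299171 to 104311469), Mepe (104325329 to 104338611) and Spp1 (104435118 to 104441050). The adjacent genes Ibsp and Mepe had the larger differences, with log2 fold changes of 4.16 and 3.91, and the outer genes Dmp1 and Spp1 the smaller, with 1.45 and 1.31. A gene of unsettled status, Gm42793, overlaps Spp1 on the same strand. Of the other members, Bglap and Bglap2 lie side by side on chromosome 3. The rest lie apart, Alpl on chromosome 4, Ifitm5 on chromosome 7, Enpp1 on chromosome 10 and Phex on chromosome X.

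Promoter windows of 250 bases before the start, from RefSeq for GRCm38.p6, were found for 9 of the 10 members (12 windows), and not for Bglap2. A pair of motifs, whose letters do not overlap in these windows, were searched on both strands: ACCACA, a core to which Runx factors can bind, and TATAAA, the TATA box. ACCACA occurred in 5 of the 12 windows and TATAAA in 5 of the 12, against 14% and 12.3% of 32536 promoter windows of the same length. Spp1, Bglap and Mepe held both, and their windows are shown because these genes had unlike log2 fold changes, 1.31 for Spp1, -1.27 for Bglap and 3.91 for Mepe. The value of Bglap had a standard error of 1.63 and was 2.30 without 0%-Axitinib replicate 3. Capitals mark the motifs on either strand.
Spp1: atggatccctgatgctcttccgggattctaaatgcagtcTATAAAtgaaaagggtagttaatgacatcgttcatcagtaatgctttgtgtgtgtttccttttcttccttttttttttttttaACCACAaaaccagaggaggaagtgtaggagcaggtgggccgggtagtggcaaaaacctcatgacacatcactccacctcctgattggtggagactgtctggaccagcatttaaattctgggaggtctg
Bglap: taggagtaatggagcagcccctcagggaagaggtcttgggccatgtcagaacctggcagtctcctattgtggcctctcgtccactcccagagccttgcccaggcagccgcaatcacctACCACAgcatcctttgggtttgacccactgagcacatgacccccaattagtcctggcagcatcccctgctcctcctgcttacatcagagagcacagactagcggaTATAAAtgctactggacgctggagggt
Mepe: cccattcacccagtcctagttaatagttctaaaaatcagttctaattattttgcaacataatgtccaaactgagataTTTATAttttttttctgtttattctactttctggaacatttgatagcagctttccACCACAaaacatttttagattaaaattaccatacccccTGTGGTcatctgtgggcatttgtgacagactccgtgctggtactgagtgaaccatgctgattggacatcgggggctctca
The windows are chr5:104434861-104435110 on the plus strand, chr3:88384467-88384716 on the minus strand and chr5:104325079-104325328 on the plus strand. In Bglap the TATA box begins at base -27 from the start, and in Spp1 and Mepe the letters begin at -211 and -173. These matches describe the letters of the windows.

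The other genes of bone formation were taken as 5 lists with 71 gene names, of which Ank and Ankh mean the same gene, and 61 genes were tested. The study's criterion was met by 23 of them as higher and by 2 as lower in the 3%-Axitinib group. For the criterion, the shares over all tested genes were 9.54% higher and 11.7% lower, the background for the count of each list. A positive log2 fold change was found for 52 of the 61 genes, and for 7352 of all 15257 tested genes. The median log2 fold change of the 61 genes was 0.87 (0.45 with 3%-Axitinib replicate 2 left out), against -0.03 over all tested genes. The 23 numbered 12 without 0%-Axitinib replicate 2 and 12 without 3%-Axitinib replicate 2, and the 2 numbered 0 without 3%-Axitinib replicate 1 or replicate 3, and 1 without 0%-Axitinib replicate 1, 0%-Axitinib replicate 2 or 3%-Axitinib replicate 2. In edgeR's quasi-likelihood test with Benjamini-Hochberg adjustment none was called at 0.05, and DESeq2's Wald test called 18.

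The transcription factors of osteoblasts, some of which switch on the matrix genes while Twist1 and Twist2 are known to hold back Runx2, had 10 tested genes of 11, of which 2 met the criterion as higher (between 1 and 5 with any 1 sample left out) and none as lower. Among its tested genes the median log2 fold change was 1.60, and 0.57 without 3%-Axitinib replicate 2. Those 2 were Alx4 and Twist1, with log2 fold changes of 1.87 and 1.32. Twist1 met it with any 1 sample left out, and Alx4 only without 3%-Axitinib replicate 1 or replicate 3. Dlx6 had the highest value, 2.46 with a standard error of 1.36 (edgeR's quasi-likelihood test, Benjamini-Hochberg adjusted p = 0.306). Without 3%-Axitinib replicate 2 Dlx6 was at 0.42, and without 0%-Axitinib replicate 3 at 4.42. The widely expressed Atf4, the most abundant of the list, had the lowest log2 fold change, 0.03. Msx2 had no read in any sample. The osteoblast factor Sp7, singled out after its values were seen, stood at 7.46, 3.21 and 32.1 CPM in 0%-Axitinib samples and at 15.7, 164 and 33.8 CPM in 3%-Axitinib samples. Its high samples were 3%-Axitinib replicate 2 and replicate 3 of either group, and the groups overlapped. Mepe reads per Sp7 read separated the groups, at 2.86, 5.47 and 1.72 against 7.9, 5.97 and 9.08. Ibsp reads per Sp7 read overlapped, at 31.5, 56.6 and 10.3 against 66.5, 64.2 and 53.4, so relative to this factor Ibsp was not separated. Dmp1 and Bglap reads per Sp7 read overlapped too and had lower means in the 3%-Axitinib group, with log2 differences of -1.07 and -2.68.

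Collagen and the enzymes that fold, cut and crosslink it had all 17 genes tested, of which 9 met the criterion as higher (between 4 and 11 with any 1 sample left out) and none as lower. The list's median log2 fold change was 1.00, and 0.60 without 3%-Axitinib replicate 2. The most abundant over all samples was Col1a1, the main chain of bone and skin collagen, at 7130, 3236 and 3181 CPM in 0%-Axitinib samples and 6774, 30639 and 9337 CPM in 3%-Axitinib samples. Col1a2 was above it in every 0%-Axitinib sample (8133, 3907 and 4211 CPM) and below it in every 3%-Axitinib sample. The groups of Col1a1 overlapped, and replicate 2 was again the high sample. Its log2 fold change of 1.79 had a standard error of 0.72 (edgeR's quasi-likelihood test, Benjamini-Hochberg adjusted p = 0.195, between 0.2 and 0.475 with any 1 sample left out), and 0.83 without 3%-Axitinib replicate 2, and it no longer met the criterion without replicate 2 or 3 of either group. The crosslinking enzyme Lox had the highest log2 fold change, 1.93 with a standard error of 0.52, and met the criterion with any 1 sample left out. Tmem38b, a channel of the cell's calcium store, had the lowest, -0.25. Ibsp reads per Col1a1 read numbered 0.033, 0.0561 and 0.104 in 0%-Axitinib samples and 0.154, 0.344 and 0.194 in 3%-Axitinib samples. Ibsp was thus higher in every 3%-Axitinib sample also relative to the main collagen chain.

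Phosphate and pyrophosphate handling had 10 tested genes of 13, of which 2 met the criterion as higher (between 1 and 3 with any 1 sample left out) and 2 as lower (0 or 1), and the median log2 fold change was 0.17, and between 0.04 and 0.24 with any 1 sample left out. The gene also named Ankh is listed as Ank in the table, and Phospho1, Abcc6 and Slc34a2 were left out by the filter. Phospho1, whose enzyme frees phosphate inside matrix vesicles, had no more than 0.706 CPM in any sample. The most abundant was Anxa2, a membrane-binding annexin with a log2 fold change of 0.44. The phosphate transporter Slc20a2 had the highest value, 0.70 with a standard error of 0.22, and met the criterion, but not without 3%-Axitinib replicate 1. Car2, a carbonic anhydrase of red cells and osteoclasts, had the lowest, -3.26 with a standard error of 1.16. It stood at 18.3, 28.8 and 365 CPM in 0%-Axitinib samples and at 8.47, 13.8 and 20.5 CPM in 3%-Axitinib samples. The 365 CPM belonged to the sample with the marrow genes, without which Car2 was at -0.71, and the criterion was not met without that sample or without any single 3%-Axitinib sample. The other genes that met it were Anxa6, an annexin, as higher and Xpr1, a phosphate exporter, as lower. With 1 sample left out, Xpr1 met it only when that was 0%-Axitinib replicate 3 or 3%-Axitinib replicate 2.

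Mineralization inhibitors and other bone matrix genes had 11 tested genes of 14, of which 5 met the criterion as higher (between 3 and 7 with any 1 sample left out) and none as lower. Across its genes the median log2 fold change was 1.75, and 0.85 without 3%-Axitinib replicate 2. Those 5 were Omd, Cthrc1, Tnn, Bmp8a and Panx3, of which not all encode matrix proteins. Ahsg, Bglap3 and Dspp were left out by the filter. Panx3, a channel protein of osteoblasts and of maturing chondrocytes, stood at 0.574, 0.991 and 2.72 CPM in 0%-Axitinib samples and at 9.9, 97.4 and 24 CPM in 3%-Axitinib samples. Like Ibsp and Mepe, it was separated between the groups and highest in replicate 2. Its log2 fold change was 4.93 with a standard error of 1.03 (edgeR's quasi-likelihood test, Benjamini-Hochberg adjusted p = 0.0965, between 0.046 and 0.28 with any 1 sample left out). The most abundant was Mgp, an inhibitor of mineral in cartilage and vessel walls, with overlapping groups and a log2 fold change of 0.99. Mgp did not meet the criterion with all samples in, but did without 0%-Axitinib replicate 3 or 3%-Axitinib replicate 3. Ogn, a small proteoglycan, had the lowest value, -0.80 with a standard error of 0.35, and did not meet the criterion.

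Further osteocyte genes had 13 tested genes of 15, of which 5 met the criterion as higher (between 2 and 6 with any 1 sample left out) and none as lower. Over the list, the median log2 fold change was 0.77, and 0.46 without 3%-Axitinib replicate 2. Those 5 were Sost, Pth1r, Tmem119, Mmp14 and Irx5. The list took in genes that are not particular to osteocytes, so these 5 are not a count of osteocyte genes only. Some of its genes, such as Cd44, Mmp14 and Pdpn, are made by many other cells. Sost, whose product sclerostin is secreted by osteocytes and restrains Wnt signalling, stood at 5.12, 5.42 and 11.2 CPM in 0%-Axitinib samples and at 27.2, 141 and 83.9 CPM in 3%-Axitinib samples. The groups did not overlap. Its log2 fold change was 3.53 with a standard error of 0.65 (edgeR's quasi-likelihood test, Benjamini-Hochberg adjusted p = 0.0965, between 0.0406 and 0.28 with any 1 sample left out), higher in all 3 samples of the group. Mmp14, a membrane protease and the most abundant of the list, had a log2 fold change of 0.77, and the receptor Cd44 had the lowest, -0.57. The filter left out Fgf23, the phosphate hormone of osteocytes, and Wnt1.

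**Figure D3:**
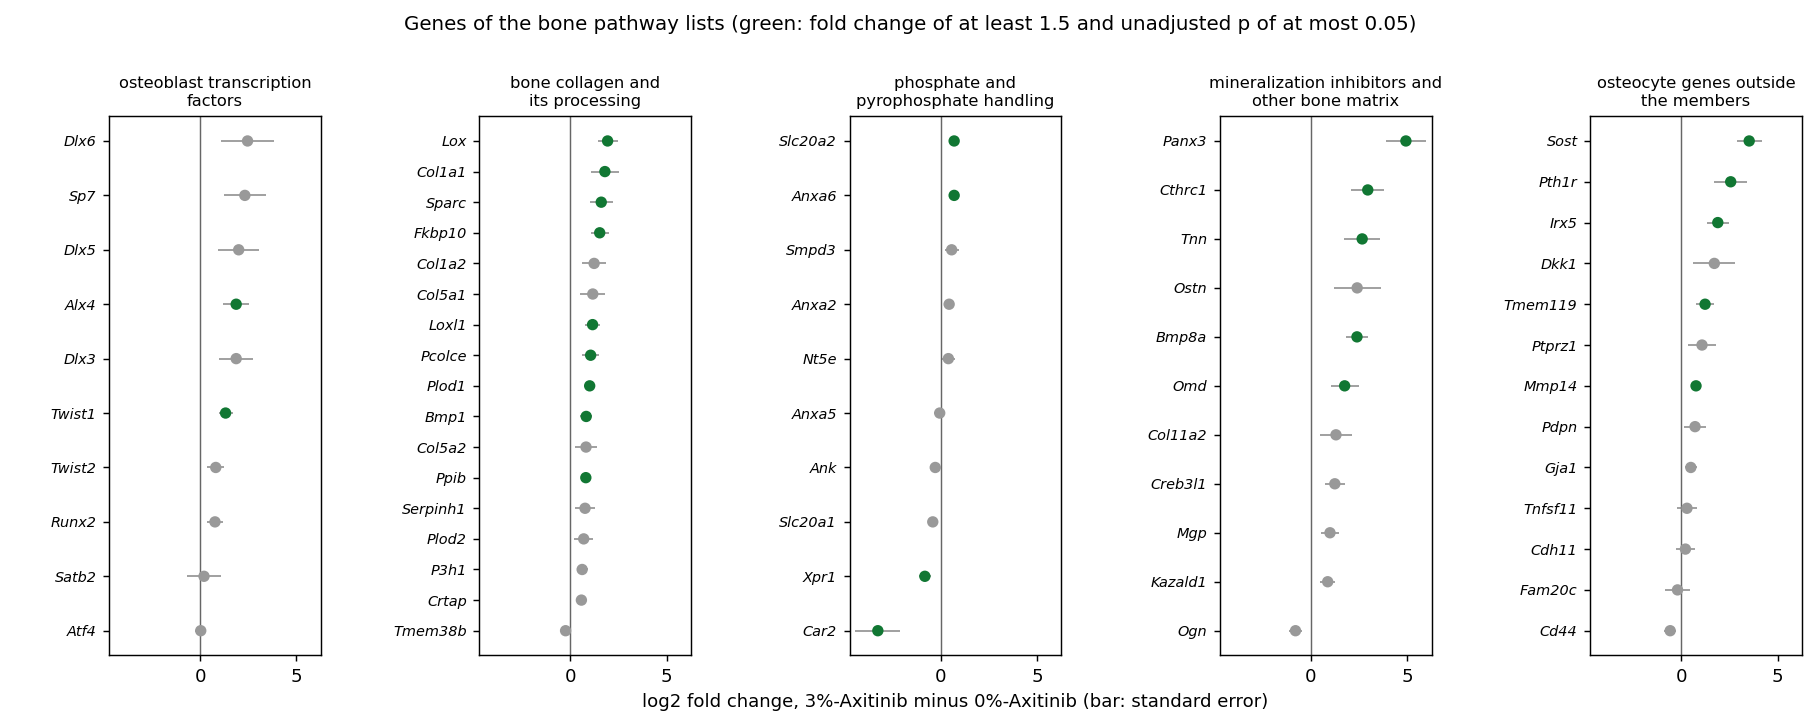
The log2 fold change between the 3%-Axitinib and 0%-Axitinib groups of the 61 tested genes of the 5 bone lists, with 1 point per gene, bars for standard errors, and green points for genes that met the criterion (fold change of at least 1.5, unadjusted p of at most 0.05). Most points lie to the right of 0 (52 of 61), with Panx3 and Sost farthest right in their lists and Car2 farthest left in its own.

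Markers of other cell types moved with the comparison as well. The chondrocyte genes summed to 379, 222 and 169 CPM in 0%-Axitinib samples and to 342, 1289 and 498 CPM in 3%-Axitinib samples, with 3%-Axitinib replicate 2 the highest, as for the members. Of 15 genes 11 were tested, and 6 met the criterion as higher (between 4 and 9 with any 1 sample left out). Among its tested genes the median log2 fold change was 1.66. The most abundant over all samples was Comp, a matrix protein also made in tendon. Col2a1 was above it in 0%-Axitinib replicate 3 and in 3%-Axitinib replicates 2 and 3, and had the higher 3%-Axitinib mean (262 against 243 CPM). Acan, the main proteoglycan core of cartilage, had the highest log2 fold change, 3.92 with a standard error of 0.83, and the collagen Col11a1 the lowest, 0.44. Matn1, Matn3 and Ucma were left out by the filter, and the name Cnmd was not in the table. Ibsp, Alpl, Enpp1 and Panx3 are also active in maturing chondrocytes, and the part of that cell type in their levels was not tested.

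The endothelial genes summed to 933, 632 and 1011 CPM in 0%-Axitinib samples and to 266, 290 and 403 CPM in 3%-Axitinib samples. They thus ran opposite to most members, and 9 of 10 met the criterion as lower (between 6 and 9 with any 1 sample left out). The list's median log2 fold change was -1.30. Pecam1 was the most abundant over all samples, with a log2 fold change of -1.61. In the 3%-Axitinib group Vwf had the higher mean (83.5 against 69.6 CPM) and was above Pecam1 in replicates 1 and 3. Vwf had the highest log2 fold change, -0.64, and Cldn5, of the junctions between endothelial cells, the lowest, -2.38. Alpl is active in some vessels too, and the part of endothelial cells in its level was not tested.

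In the osteoclast list 1 of 12 tested genes met the criterion as lower (between 0 and 3 with any 1 sample left out). Across its genes the median log2 fold change was -0.69, and between -1.45 and -0.34 with any 1 sample left out. Ctsk, the collagen-cutting protease of osteoclasts, was the most abundant and had the highest value, 0.13, while Itgb3, the gene that met the criterion, had the lowest, -1.42. No macrophage gene of 12 met the criterion in edgeR's quasi-likelihood test (0 or 1 with any 1 sample left out), and DESeq2's Wald test called 0 of them at an adjusted 0.05. Their median log2 fold change was -0.12, and between -0.28 and 0.07 with any 1 sample left out. Lyz2 was the most abundant over all samples, although Gpnmb had the higher 0%-Axitinib mean (8191 against 6805 CPM) through 0%-Axitinib replicate 2. C1qb and Aif1 were at the ends of the log2 fold changes with 0.35 and -1.90. Of the 12 skeletal muscle genes, 10 met the criterion as higher (between 6 and 12 with any 1 sample left out). Over the list, the median log2 fold change was 7.22 (between 6.29 and 10.43 with any 1 sample left out), although 3%-Axitinib replicate 2 kept every one of them overlapping. Acta1 was the most abundant, and Myh1 and Actn3 were at the ends with 8.19 and 5.95. The sample richest in member reads was therefore the one of its group with the least muscle RNA (18.7 CPM), and the part of muscle RNA in the members' levels was not tested.

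The fibroblast list had 3 of 10 tested genes higher by the criterion (between 1 and 4 with any 1 sample left out) and a median log2 fold change of 0.79, and 0.43 without 0%-Axitinib replicate 3 or 1.21 without 0%-Axitinib replicate 1. Those 3 were Thy1, Fbln1 and Mfap5. Its most abundant gene was Col3a1, and Mfap5 and Dpt were at the ends with 1.43 and 0.25. Of 8 adipocyte genes, 2 were lower by the criterion (between 2 and 7 with any 1 sample left out). Among its tested genes the median log2 fold change was -1.19, and -3.08 without 3%-Axitinib replicate 1. Lpl was the most abundant and had the highest value, -0.90, and Lep, the gene of leptin, had the lowest, -5.58; Lep and Fabp4 met the criterion. Of 8 keratinocyte genes, 3 were tested, and 2 (Krt10 and Lor) were lower by the criterion, but 0 without 0%-Axitinib replicate 2, the only sample rich in them, or without any single 3%-Axitinib sample. Krt1 was the most abundant over all samples through 0%-Axitinib replicate 2 (273 CPM), while Krt10 was above it in every other sample. Trp63 and Lor were at the ends with -0.69 and -6.97. With any 1 sample left out, Trp63 lay between -1.31 and 2.25, a range with both signs, and Lor between -8.22 and -1.21. Krt5, Krt14, Krt1, Dsg3 and Krt15 were left out by the filter. All 6 tested red cell and marrow genes were lower by the criterion, but 1 without 0%-Axitinib replicate 3 and 0 without any single 3%-Axitinib sample. Hbb-bs was the most abundant, Alas2 and Mpo were at the ends with -3.34 and -8.44, and Elane was left out by the filter. With any 1 sample left out, Alas2 lay between -3.84 and -0.84. Mpo lay between -9.02 and 1.76, a range with both signs.

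Likeness of pattern was measured by Pearson's r of log2 CPM over the 6 samples, among 14333 other tested genes with a mean of at least 1 CPM, as a description of libraries that share depth and scaling. The genes most like Ibsp were Wif1 (r = 0.999), Pop4 (0.997), Itga10 (0.995), Kdelr1 (0.994) and Ece2 (0.993). Wif1, a secreted inhibitor of Wnt proteins, stood at 7.52, 6.53 and 12.6 CPM in 0%-Axitinib samples and at 39.8, 556 and 75.9 CPM in 3%-Axitinib samples. The genes most like Dmp1 were 3010026O09Rik (r = 0.996), Tbx2 (0.996), Fancc (0.989), Ccdc17 (0.989) and Lgr6 (0.987). Tbx2, a transcription factor, stood at 9.19, 5.6 and 16.3 CPM and at 9.68, 58.8 and 19.8 CPM, with 3%-Axitinib replicate 1 again among 0%-Axitinib samples. No gene stood on both lists of 5.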

How the data were processed

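Per the labels and the study's methods, total RNA was extracted, libraries were made with a TruSeq kit, and the authors mapped the reads to mm10, with STAR 2.5.2b in the submitters' processing notes. The authors deposited raw counts per gene, not normalized. The annotation release and the use of strand are not given in the sources used here. The 4 rows of reads on no gene (shares of all reads: unmapped 3.84% to 48.4%, multimapping 2.71% to 6.65%, outside genes 3.17% to 6.14%, ambiguous 3.55% to 5.74%) were kept out of library sizes. Counts were filtered with filterByExpr (minimum count 10, minimum total 15), scaled by TMM and tested in edgeR 4.0.16 (R 4.3.3) by its quasi-likelihood test, with p adjusted by Benjamini-Hochberg over 15257 genes, after a test on simulated data. The p-values measure the spread between samples, which are not known to be separate mice. Members and lists were chosen with earlier results of these data known. In the marker lists, 1 gene is not reported here. Besides the members, Bglap3 and Dspp, the text names by rule each list's most abundant gene, its highest and lowest log2 fold change, genes of a list without reads or left out by the filter where 5 or fewer, genes past the adjusted threshold, and the 5 genes most like Ibsp and Dmp1 (log2 CPM with a prior count of 2). Abundance in this rule is over all samples, and in some lists another gene led in single samples. Genes in parentheses or clauses outside this rule were named after their values were seen. Positions and exon lengths came from GENCODE M21 for GRCm38. Alternatives were DESeq2 size factors, total counts, no filter, DESeq2 1.42.0, a replicate block, each sample left out, and a prior count of 0.5. Figures used matplotlib 3.10.9 under Python 3.11.15.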

Additional observations from a re-analysis of the deposited data

Results flagged for a closer look

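Reads left without a place in the mouse genome, which no comparison of genes used, averaged 31.5% under 3%-Axitinib against 8.08% under 0%-Axitinib, and each 3%-Axitinib library exceeded each 0%-Axitinib library. The source of these reads was not tested.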

How the results depend on the processing

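With DESeq2 size factors, total counts, no filter, DESeq2's Wald test, a replicate block or any 1 sample left out, 106 of 110 log2 fold changes of single members stayed within 1 SD of their value (SD of log2 CPM between replicates, pooled over the groups: 1.45 for Alpl, 2.53 for Bglap2), and 2 took the other sign: without 0%-Axitinib replicate 3, Bglap was at 2.30 (lowest with a sample left out, -1.84), Bglap2 at 1.60 and the late osteoblast median at 2.07. That median was lowest at -1.44 without 0%-Axitinib replicate 2, and the cause was not tested. The early matrix median lay between 2.53 and 4.57 with a sample left out. Genes called at an adjusted 0.05 numbered 1 in edgeR's quasi-likelihood test with Benjamini-Hochberg adjustment, 15 with no filter, 1957 in DESeq2's Wald test, and between 0 and 1252 with a sample left out. The criterion was met by between 1055 and 2274 higher genes, and in the bone lists by between 12 and 26 higher and between 0 and 3 lower genes, with a sample left out. Scaling by total counts moved the median of all tested genes by -0.13 on the log2 scale.

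The replicate numbers did not pair the samples: deviations of same-numbered samples from their group means correlated at 0.18, -0.12 and -0.17. With the replicate number as a block, 2 genes were called at an adjusted 0.05, the criterion was met by 1249 higher and 1354 lower genes, and by 14 higher and 3 lower genes of the bone lists. Not every sample correlated best with its own number. Depth limits Ifitm5 (175 reads in all) and the osteocalcin genes in 3%-Axitinib replicate 1 (5 reads each).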
